A study of Mus musculus with 12 samples.

Results

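The outer root sheath (ORS) of the mouse hair follicle was compared with the cells that the labels abbreviate IFE. The comparison took all ORS and all IFE libraries of the series, 8 of its 12 libraries, chosen by the labelled cell type and not by any measured value. The cells were sorted, and their messenger RNA was sequenced as paired reads of 150 bp after isolation with a PicoPure kit and copying with a SMARTer Ultra kit. The series concerns the epidermal growth factor receptor EGFR, and each cell type was taken from control skin (genotype EGFR_fl_fl, floxed Egfr with no deletion named) and from knockout skin (EGFR_delta_ep, with Egfr deleted). Each group had 2 libraries: E341 and E344 for ORS control, E341 and E360 for IFE control, and E358 and E359 for the knockouts of either cell type. All controls carry the floxed allele, and the Cre line, the age of the mice and the sort markers were not given in the sources used here. The labels write IFE out as inner root sheath, although the abbreviation usually stands for interfollicular epidermis, so the abbreviation is kept and the markers of both are given.

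The outer root sheath is the outermost epithelial layer of the hair follicle and is continuous with the epidermis between follicles. It holds the bulge, where follicle stem cells rest, and its cells depend on transcription factors such as SOX9 and LHX2. The interfollicular epidermis renews itself from a basal layer of Krt5 and Krt14 cells, which move up as Krt1 and Krt10 cells and end as a cornified barrier. The inner root sheath is a separate, rigid tube inside the follicle with keratins of its own, among them Krt25 and Krt71.

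Depth differed between the compartments. ORS libraries held 25.9 ± 1.39 M reads in genes (SD, n = 4) and IFE libraries 12.4 ± 0.742 M, and these reads made up 52.6 ± 2.01% and 28.8 ± 0.874% of the library totals. Both differences had p = 0.0286 in an exact two-sided permutation test over 4 against 4 libraries, the smallest p this design can give (0.0429 adjusted over 3 measures). Among genes with 1 to 20 reads, even counts made up 38.2% to 40.7% in ORS and 44.2% to 46.5% in IFE. The cause of these library differences, and their part in the results, was not tested. Whether the libraries of a group are from different mice is not labelled, and the p-values cover only the spread among these libraries, some of which may be technical. Xist, transcribed from the inactive X chromosome of females, was at 1333 to 1920 CPM in ORS control E344 and the 4 knockout libraries and at 1.02 to 2.88 CPM in both E341 libraries and IFE control E360, where the Y-linked gene Ddx3y was at 141 to 237 CPM. The 4 knockout libraries thus share a sex, and the control libraries do not.

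Levels are given as CPM, reads per 1e6 reads in genes after scaling by trimmed means (TMM). Values stand in a fixed order of libraries: for ORS control E341, control E344, knockout E358 and knockout E359, and for IFE control E341, control E360, knockout E358 and knockout E359. Differences are log2(CPM + 0.5) in ORS minus IFE, averaged over both genotypes, with the standard error (SE) of limma, and this scale understates the difference of low genes. Genes with a two-sided p under 0.05 after Benjamini-Hochberg adjustment were called. In bulk cells, fewer cells of a type and less RNA per cell cannot be told apart.

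Of 14449 genes tested, 2279 were called (15.8%), 1201 higher in ORS (8.31%) and 1078 lower (7.46%). At least 2-fold differences made up 984 of the former and 764 of the latter, and differences of at least 8-fold made up 337 and 263. The 4 ORS libraries did not overlap the 4 IFE libraries in 2044 of the called genes. Over all tested genes, 11.3% had every ORS library above every IFE library and 10.3% every ORS library below. The median log2 difference over all tested genes was 0.12. Had the reads been divided by the deposited library totals in place of the reads in genes, the higher share of all calls would have been 93.6% in place of 52.7%, and the median 0.92, so directions below are relative to the reads in genes.

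**Figure D1:**
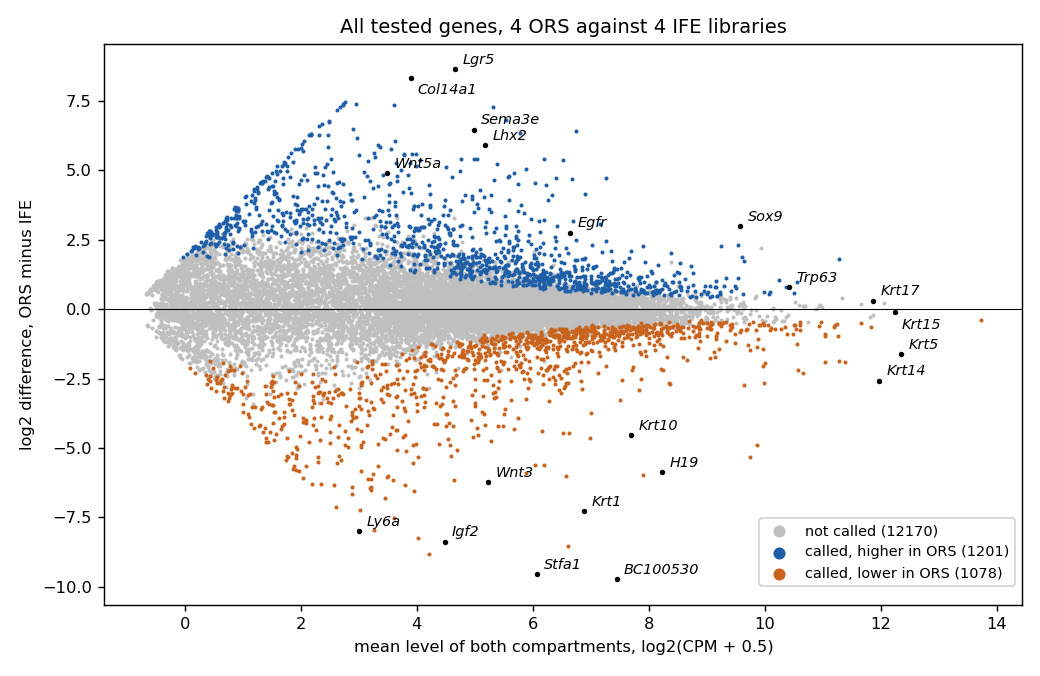
Log2 difference of ORS minus IFE (vertical axis) against the mean level of both compartments in log2(CPM + 0.5) (horizontal axis), 1 point per tested gene, with called genes in blue (1201 higher in ORS) and orange (1078 lower). Krt15 and Krt17 sit near 0 at high level, while Lgr5 and the stefin A genes Stfa1 and BC100530 lie at opposite ends.

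The largest difference in favour of ORS was that of Lgr5, a receptor for R-spondins and a marker of cycling follicle stem cells. Lgr5 was at 339, 343, 493 and 414 CPM in the ORS libraries and at 0, 0, 0.321 and 4.13 CPM in the IFE libraries. The groups were far apart, and the IFE reads came from the knockout libraries. The log2 difference was 8.64 (SE 0.52, adjusted p = 4.83e-06). Col14a1, a collagen that binds to the surface of fibrils, was at 260, 288, 198 and 204 CPM in ORS and at 0, 0, 0 and 1.70 CPM in IFE, a log2 difference of 8.34 (SE 0.54, adjusted p = 6.43e-06). Again the single IFE library with reads was knockout E359. Steap4, a metalloreductase, was at 337, 362, 226 and 501 CPM in ORS and at 7.21, 8.38, 0 and 0.162 CPM in IFE (log2 difference 7.30, SE 0.36). Here the IFE control libraries held more reads than the IFE knockout libraries, and both lay far below ORS.

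Of the 15 largest differences in favour of ORS, 8 had no read in any IFE library. For these the difference is a lower bound, set against the level that 3 reads per library would give in IFE (0.252 CPM). Prdm1, which encodes the transcriptional repressor BLIMP1, was at 76.0, 97.7, 100.02 and 50.1 CPM in ORS, at least 321-fold higher. Hoxc13, a regulator of hair keratin genes, was at 57.3, 38.8, 67.4 and 45.0 CPM in ORS, at least 207-fold higher. Adamts19, an extracellular metalloprotease, was at 69.7, 84.9, 117 and 89.5 CPM in ORS, at least 357.6-fold higher. The spread within ORS was small beside these bounds. The other genes of this kind were Gm973, Lass4 (a ceramide synthase), Pdlim3, Scrg1 and Krtap17-1 (a keratin-associated protein of hair), with bounds of 342, 348, 298, 248 and 194-fold. Abi3bp, a matrix protein, Pdzrn3, Thsd1 and Trib2, a pseudokinase, completed the group, with log2 differences of 6.83, 7.40, 7.34 and 6.73.

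**Figure D2:**
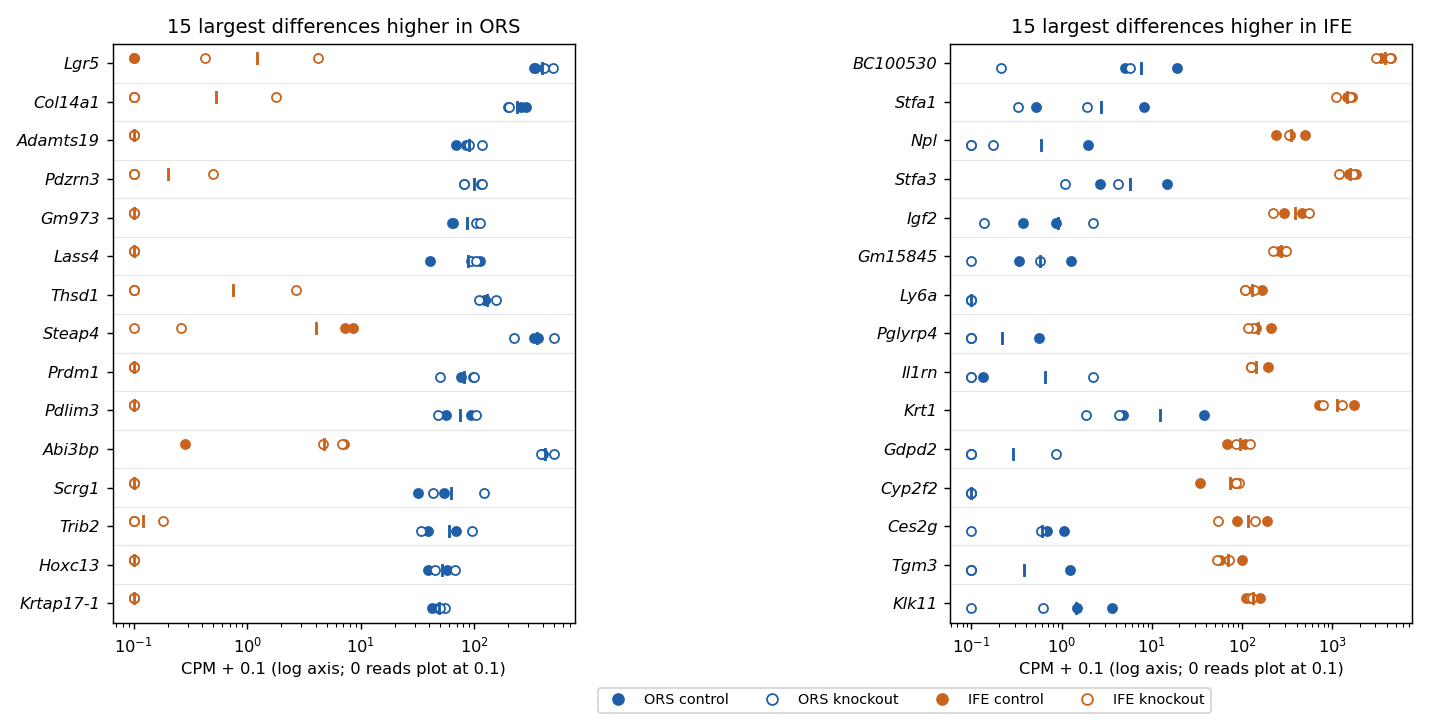
CPM + 0.1 per library (log axis) for the 15 genes with the largest differences higher in ORS (left) and higher in IFE (right). Filled circles are control and open circles knockout libraries, and bars are means. Genes were chosen among those called without overlap of the compartments and with at least 20 CPM in the higher one.

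In favour of IFE, the largest differences were those of stefin A genes, which encode inhibitors of cysteine proteases. Stfa1 (mm10, chr16:36277148-36285371, plus strand) was at 1441, 1633, 1560 and 1102 CPM in IFE and at 8.07, 0.426, 1.82 and 0.227 CPM in ORS, a log2 difference of -9.54 (SE 0.61, adjusted p = 6.43e-06). Stfa3 (chr16:36450537-36455392, minus strand) was at 1839, 1510, 1693 and 1184 CPM in IFE and at 14.8, 2.55, 4.07 and 0.983 CPM in ORS (log2 difference -8.51, SE 0.49). BC100530 (chr16:36359382-36367748, minus strand), which lies between them, was at 4508, 3460, 4348 and 3020 CPM in IFE and at 19.1, 4.95, 5.59 and 0.113 CPM in ORS (log2 difference -9.73, SE 0.62). In all 3 genes the highest ORS value belonged to control E341. Stefin A genes have near-identical copies, so reads may have been split among them and each value is uncertain.

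From the promoters read for leading genes, those of Stfa1 and Stfa3 were picked after the motif search. They are shown because both hold the GATA motif AGATAA more than once, and because GATA3 is a transcription factor of the compartments compared. They are the 150 bases before the start of each gene, from RefSeq (GRCm38.p6), 5′ to 3′ on the strand of the gene, with matches to AGATAA in capitals, at chr16:36276998-36277147 and chr16:36455393-36455542.
Stfa1: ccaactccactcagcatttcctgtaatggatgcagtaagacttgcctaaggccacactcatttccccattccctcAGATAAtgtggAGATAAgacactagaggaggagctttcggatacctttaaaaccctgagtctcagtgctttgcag
Stfa3: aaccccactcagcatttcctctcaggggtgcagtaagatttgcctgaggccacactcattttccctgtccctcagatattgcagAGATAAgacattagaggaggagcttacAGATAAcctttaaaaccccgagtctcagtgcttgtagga
The motif starts 75 and 64 bases before the start in Stfa1 and 66 and 39 bases before it in Stfa3. The paired promoters were identical at 129 of 153 aligned positions (84.3%), so the matches are not independent. Of 9656 tested genes with a RefSeq promoter (250 bases before to 50 after the start, both strands), 6.19% held AGATAA, 4.75% of those called higher in ORS and 6.12% of those called lower. Genes called lower in ORS thus held the motif at about the share of all tested genes. At least 2 copies were found in 0.342% of the 9656. The pair shown was picked for its copies, so this share is not a test of them. Gata3 itself was at 865, 921, 991 and 1024 CPM in IFE and at 317, 284, 337 and 356 CPM in ORS (log2 difference -1.56, SE 0.12, adjusted p = 1.71e-05). Control of Stfa1 or Stfa3 by GATA3 was not tested.

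Among the genes higher in ORS, 1 promoter is shown for its matches to 2 of the motifs searched. The 150 bases before Gm973 (chr1:59516114-59516263, plus strand) hold matches to TGANTCA and to AACAAAG, a site of SOX factors, in capitals. TGANTCA was searched for AP-1 factors with any base as N, which is looser than their usual site with C or G there. The match in Gm973 has A there, so it is not that usual site.
Gm973: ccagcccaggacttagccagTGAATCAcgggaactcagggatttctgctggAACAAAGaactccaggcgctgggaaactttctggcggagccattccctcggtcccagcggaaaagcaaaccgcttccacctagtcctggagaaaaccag
AACAAAG was found in 3.98% of all tested promoters, in 4.63% of those of genes higher in ORS and in 3.2% of those of genes lower in ORS. For TGANTCA the shares were 4.94%, 4.38% and 7.65%, and for TATAAA, the TATA box, 7.13%, 7.06% and 11.1%. For CTTTGAA, the site of TCF and LEF factors, they were 3.6%, 4.02% and 4.03%. GRHL, homeodomain and KLF motifs (AACNGGTT, TAATTA and CCACCC) were found in 1.85%, 2.54% and 37.1% of all, in 1.95%, 2.68% and 41.8% of those higher and in 2.78%, 2.5% and 42.7% of those lower in ORS. Among the leading genes each way whose promoters were read, Npl, Pdzrn3 and Thsd1 held no match to any motif searched in the same 150 bases. A match is a description of letters and not of binding.

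The other genes among the 15 largest differences in favour of IFE are described next, with H19, which is not among the 15, beside its neighbour Igf2. Ly6a, the surface protein SCA-1, was at 108, 165, 134 and 108 CPM in IFE and had no read in any ORS library, at least 1156-fold lower in ORS against the level that 3 reads per library would give (0.111 CPM). Npl, an enzyme of sialic acid breakdown, was at 495, 238, 339 and 334 CPM in IFE and at 1.86, 0, 0.0741 and 0 CPM in ORS (log2 difference -8.80, SE 0.54). No ORS library came near the lowest IFE value of either gene. Igf2, a growth factor, was at 464, 294, 545 and 220 CPM in IFE and at 0.772, 0.271, 0.037 and 2.12 CPM in ORS (log2 difference -8.37, SE 0.56). H19, the noncoding transcript that neighbours Igf2 on chromosome 7, was at 3363, 1741, 2683 and 1352 CPM in IFE and at 68.3, 31.5, 29.3 and 27.7 CPM in ORS (log2 difference -5.86, SE 0.30). Cyp2f2, a cytochrome P450, also had no read in ORS, at least 664-fold lower. Pglyrp4, which binds bacterial peptidoglycan, Il1rn, the interleukin 1 receptor antagonist, Klk11, a kallikrein protease, and Tgm3, a transglutaminase, had log2 differences of -7.96, -7.50, -6.53 and -6.66. Gm15845, Gdpd2 and Ces2g had log2 differences of -8.25, -7.21 and -6.81, and Krt1 is described below. Gm15845 is an antisense transcript that overlaps BC100530, so these 15 are not all separate loci.

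Of these 15 genes, 9 had their highest ORS value in control E341, where they summed to 88.8 CPM against 6.43 to 18.96 CPM in the other ORS libraries. On the other side, the 15 genes higher in ORS summed to 15.4 CPM in IFE knockout E359 and to 5.30 to 14.2 CPM in the other IFE libraries. Without ORS control E341, 1259 genes were called, and without IFE knockout E359, 2690. Of genes called over all 8 libraries, 1242 and 2004 were called again in those fits. The part of these traces in the results was not tested.

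The labels were read against marker genes next. Of 11 tested markers of the outer root sheath and companion layer, 6 were called higher in ORS and 1 lower, with a median log2 difference of 1.21. Sox9 was at 1946, 2015, 2967 and 1651 CPM in ORS and at 172, 256, 397 and 266 CPM in IFE (log2 difference 3.0, SE 0.21, adjusted p = 1.14e-05). Tgm5, a transglutaminase, and Gjb6, a connexin, had log2 differences of 3.22 and 3.0, and Cux1, Barx2 and Il11ra1 lay between 1.11 and 1.24. Krt16, a keratin of activated keratinocytes, was lower in ORS (2.65 against 73.8 CPM, log2 difference -4.91). Krt75, the keratin of the companion layer, was close to absent, at 3.33, 0.851, 0.037 and 0.378 CPM in ORS and at no more than 0.161 CPM in IFE. Without IFE control E341 or without ORS control E344, 3 of the 6 higher calls were left.

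Of 23 bulge and hair germ genes tested, 17 were called higher in ORS and 2 lower, with a median of 2.84, or 3.61 when genes without reads in 1 compartment are put at their bound. Lhx2, a transcription factor that keeps follicle stem cells in place, was at 231, 266, 321 and 244 CPM in ORS and at 3.90, 1.35, 6.02 and 6.32 CPM in IFE (log2 difference 5.92, SE 0.34). Nfatc1, which holds bulge cells in quiescence, was at 404, 504, 443 and 555 CPM in ORS and at 28.4, 5.86, 2.49 and 31.2 CPM in IFE (log2 difference 5.37, SE 0.67). Tbx1 had no read in IFE and 11.5 ± 3.58 CPM in ORS, at least 45.8-fold higher. The members lower in ORS were Gas1 (149 against 348 CPM) and Postn (549 against 835 CPM), and Krt15, Tnc and Cdh3 were not called. Cd34, the surface marker of the bulge, was also not called, at 4.07, 3.10, 0 and 5.90 CPM in ORS and 0 in IFE (adjusted p = 0.0675). Before TMM scaling, Cd34 was at 1313 to 2141 CPM in the 4 libraries labelled hair follicle stem cells and at no more than 6.33 CPM in ORS. Lgr5 was at 129 to 346 CPM in those stem cell libraries and at 349 to 508 CPM in ORS on the same scale. Krt15 was at 19570 to 35920 CPM in the stem cell libraries and 4298 to 5358 CPM in ORS, and Postn at 2294 to 4274 and 533 to 610 CPM. Nfatc1 was the reverse, at 192 to 246 and 416 to 596 CPM, and Lhx2, Tbx1 and Foxc1 overlapped. The ORS libraries therefore held Lgr5, Lhx2 and Nfatc1 RNA with little Cd34 RNA, and with less Krt15 and Postn RNA than the stem cell libraries. Markers of the upper follicle were also higher, 5 of 7 with none lower and a median of 2.03, among them Krt79 (163 against 19.9 CPM) and Lrig1 (383 against 105 CPM), a brake on EGFR signalling. For this list, 3 were called without ORS control E344.

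Suprabasal epidermis showed the reverse. Of 17 tested genes, 11 were called lower in ORS and 1 higher, with a median of -2.52 (-2.91 with bounds), and leaving out any 1 library gave 10 lower calls. Krt1 was at 1714, 705, 1269.5 and 783 CPM in IFE and at 37.5, 4.72, 4.22 and 1.74 CPM in ORS (log2 difference -7.27, SE 0.56). Krt10 was at 1418, 655, 1077 and 854 CPM in IFE and at 64.7, 27.7, 41.1 and 37.2 CPM in ORS (log2 difference -4.55, SE 0.30). Krtdap, a secreted keratinocyte protein, was at 5078, 5113, 5092 and 4444 CPM in IFE and at 233, 214, 164 and 93.5 CPM in ORS (log2 difference -4.88, SE 0.17, adjusted p = 1.85e-07). IFE libraries were high and even for Krtdap and more spread for Krt1 and Krt10. Calml3, a calmodulin-like protein, was the exception, higher in ORS (57.7 against 1.06 CPM). Of 29 cornified envelope genes, only 5 were called, all lower in ORS, and the median of -0.21 changed sign in 7 of the alternative settings. Without ORS control E344, 3 of these were called. Of 23 genes of barrier lipids and desquamation, 9 were lower and 1 higher, led by the kallikreins Klk11 and Klk8, the ceramidase Acer1 and the very long chain fatty acid enzyme Elovl4. The median of the latter list was -0.74 and turned to 0.01 on the deposited library totals.

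Of 12 listed inner root sheath markers, 6 were tested, 2 were called higher in ORS and 1 lower, and the list's median of -0.26 changed sign in 5 alternative settings. Leaving out 1 library gave 0 to 2 higher calls, and the count moved by over 1.5 times without any library but IFE knockout E359. Krt71 was at 3.47, 10.3, 15.3 and 12.4 CPM in ORS and at 0, 0, 6.90 and 0 CPM in IFE, and Krt28 at 2.33 against 0 CPM. The uncalled members Krt73 and Tchh were at 1.13 and 4.78 CPM on average in ORS and at 8.08 and 11.4 CPM in IFE. The called lower member was Gata3, which the epidermis also expresses, and with its values given above it made up most of the list's sum of 303 to 384 CPM in ORS and 884 to 1064 CPM in IFE. Krt74, Padi3 and Tchhl1 had no read in any of the 8 libraries. The levels of Krt1, Krt10 and Krtdap in the cells labelled IFE, and the low levels of the inner root sheath keratins tested, go against inner root sheath as the name of these cells.

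Markers of leukocytes, melanocytes and endothelial cells were mostly low, while the fibroblast and the Merkel and Schwann cell lists held some higher genes. None of 8 tested leukocyte and Langerhans cell genes was called, and Ptprc, Cd207 and Cd3e had no reads. All 18 leukocyte members present in the data, tested or not, summed to 19.9 to 28.1 CPM in ORS and 22.4 to 55.3 CPM in IFE. All 12 melanocyte genes, tested or not, summed to 72.1 to 89.3 CPM in ORS and 14.7 to 29.8 CPM in IFE. Of the 5 tested, only Mitf was called, while Sox10 and Tyr were not among the tested genes. Of 12 fibroblast genes, 3 were higher in ORS (Vim, Col1a1 and Col5a1) and 3 lower (Sparc, Dcn and Col6a1), with Col3a1, Dpt and Twist2 at 0 reads in all 8. The summed level of all 18 fibroblast genes listed, tested or not, was 253 to 322 CPM in ORS and 883 to 1447 CPM in IFE. Sparc was at 831 CPM on average in IFE, the larger part of the sum there, and at 128 CPM in ORS. All 3 tested endothelial genes were uncalled. All 11 Merkel and Schwann cell genes, tested or not, summed to 186 to 321 CPM in ORS and 10.8 to 21.5 CPM in IFE. Of the 5 tested, only Ncam1 was called, at 243 against 8.85 CPM on average. The part of such cells in the results was not tested.

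Keratins were compared per length, as reads per kb of exon per 1e6 reads in genes. All 41 keratins summed to 7627 ± 364 in ORS and 15649 ± 1443 in IFE (SD, n = 4). In ORS, Krt15 and Krt17 made up 34.4 ± 3.37% and 34.4 ± 3.70% of the keratin total and did not differ beyond their spread, followed by Krt5 with 17.8 ± 2.23% and Krt14 with 12.3 ± 1.17%. In IFE the order was Krt14 with 35.5 ± 1.82%, Krt5 with 26.6 ± 1.07%, Krt15 with 18.3 ± 3.0%, Krt17 with 14.3 ± 5.11%, Krt10 with 3.0 ± 0.832% and Krt1 with 1.6 ± 0.597%. Krt15 and Krt17 lay within their spread there. The CPM of Krt15 was 4172, 4225, 5158 and 4998 in ORS and 5972, 5059, 4821 and 4296 in IFE, and that of Krt17 was also not called (log2 difference 0.30, adjusted p = 0.194). Krt14 was lower in ORS, at 1698, 1488, 1492 and 1924 CPM against 10332, 8275, 11325 and 9227 CPM (log2 difference -2.57, SE 0.12), and Krt5 at 2719.9, 2878, 2601 and 3759 CPM against 9590.4, 7751, 10511 and 8819.8 CPM (log2 difference -1.62, SE 0.13). The change in order therefore lay in Krt5 and Krt14. Krt14, Krt16 and Krt17 are similar in sequence and may share reads.

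Basal and hemidesmosome genes followed in part. Of 18 tested, 5 were lower in ORS, among them Krt14, Krt5, Col17a1 and Itga6, and 1 higher, Trp63, the master regulator of stratified epithelia, at 1909, 2049, 1384 and 1892 CPM in ORS and 1110.3, 1059, 931 and 1010.2 CPM in IFE. The list's median of -0.59 turned positive on the deposited library totals, where 2 were lower and 7 higher. Without ORS knockout E359, 8 were lower, and with log2 values centred on a curve of exon length, an alternative chosen after seeing the data, 10 were. Of the connexins, Gjb2 and Gjb6 were higher in ORS (log2 differences 3.79 and 3.0), and Gja1 was not called. Of 29 junction genes 4 were higher and 9 lower, the latter led by the desmoglein Dsg1a at 19.2 against 432 CPM. On the deposited library totals the median of that list also turned positive, with 15 higher and 4 lower.

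Transcription factors of the follicle and of epidermal differentiation moved apart. Of 36 follicle factors, 16 were called higher in ORS and 3 lower, with a median of 1.39 (1.47 with bounds). Besides Sox9, Lhx2, Nfatc1 and Tbx1 these included Runx1, at 151, 158, 156 and 148 CPM in ORS and 9.24, 15.4, 4.09 and 8.10 CPM in IFE, Foxc1, and Vdr, the vitamin D receptor that hair cycling needs (log2 differences 4.12, 3.66 and 3.18). Meis2, Sox6 and Sox21 were lower (log2 differences -4.49, -4.15 and -2.60). Of 29 epidermal factors, 14 were lower in ORS and 5 higher, with a median of -0.66 that turned to 0.23 on the deposited library totals. Klf5, which drives keratinocyte growth, was at 210.1, 241, 246 and 211 CPM in IFE and at 12.3, 10.95, 10.7 and 10.02 CPM in ORS (log2 difference -4.31, SE 0.24). Pou3f1, Zfp750, Grhl3, Ovol1 and Klf4, which act in barrier formation and differentiation, had log2 differences of -4.20, -3.78, -3.36, -3.07 and -1.08. Leaving out 1 library at a time gave 8 to 12 lower calls, and the count moved by over 1.5 times without IFE control E341, ORS control E341 or E344, IFE control E360, or either ORS knockout. Among 25 HOX genes, Hoxc13 and Hoxc8 were higher and Hoxa7 lower in ORS. This was 12% called, against 15.8% of all tested genes, so HOX genes as a list did not stand out. The Hoxa7 call was lost in 10 alternative settings.

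WNT ligands were mostly higher in IFE. Of 15 tested, 8 were called lower in ORS and 1 higher, with a median of -2.21 (-3.51 with bounds), and leaving out any 1 library gave 7 lower calls. Wnt3 was at 278, 273, 283 and 315 CPM in IFE and at 1.40, 1.32, 6.96 and 7.79 CPM in ORS (log2 difference -6.23, SE 0.28, adjusted p = 1.29e-06). Wnt4 was at 452, 412, 590.1 and 399 CPM in IFE and at 26.0, 25.4, 46.2 and 41.9 CPM in ORS (log2 difference -3.75, SE 0.19). Wnt3a, at 33.2 ± 4.29 CPM in IFE (SD, n = 4), had no read in ORS, at least 297-fold lower. For Wnt3 and Wnt4 both ORS knockout values were above both ORS control values. This order was seen after the fact with 2 libraries a group, and its share over all genes was not counted. The ORS controls also differ in sex by Xist, and an effect of genotype within ORS was not tested. Wnt7a, Wnt10a, Wnt16, Wnt9b and Wnt7b were the others lower in ORS. The ligand higher in ORS was Wnt5a, which often acts without beta-catenin, at 61.3, 64.3, 68.2 and 46.5 CPM in ORS and 2.21, 1.26, 2.09 and 0.810 CPM in IFE (log2 difference 4.90, SE 0.49).

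Receptors of WNT split. Of 28 tested receptors, effectors and targets, 10 were higher and 6 lower in ORS, with a median of 0.25. Fzd7, a frizzled receptor, was at 259, 206, 335 and 185 CPM in ORS and at 10.7, 5.14, 17.9 and 10.6 CPM in IFE (log2 difference 4.50, SE 0.33), and Fzd1 and Fzd2 were also higher (2.73 and 2.46). Fzd10 was the reverse, at 6.32, 6.89, 8.70 and 3.97 CPM in ORS and 145, 202, 156 and 131 CPM in IFE (log2 difference -4.54, SE 0.33). All 3 R-spondin receptors were higher in ORS: besides Lgr5, Lgr4 was at 1660.2 CPM on average against 334 CPM (log2 difference 2.31) and Lgr6 at 52.0 against 14.3 CPM (1.98). Of the factors that bind beta-catenin, Tcf7, Tcf7l1 and Tcf7l2 were higher in ORS (2.79, 1.98 and 2.02) and Lef1 lower (-3.23). Wls, which WNT proteins need for export, was lower (326 against 620 CPM). Among 10 antagonists, Dkk3, Sfrp1, Wif1 and Sostdc1 were higher in ORS, and Kremen2 and Apcdd1 lower.

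**Figure D3:**
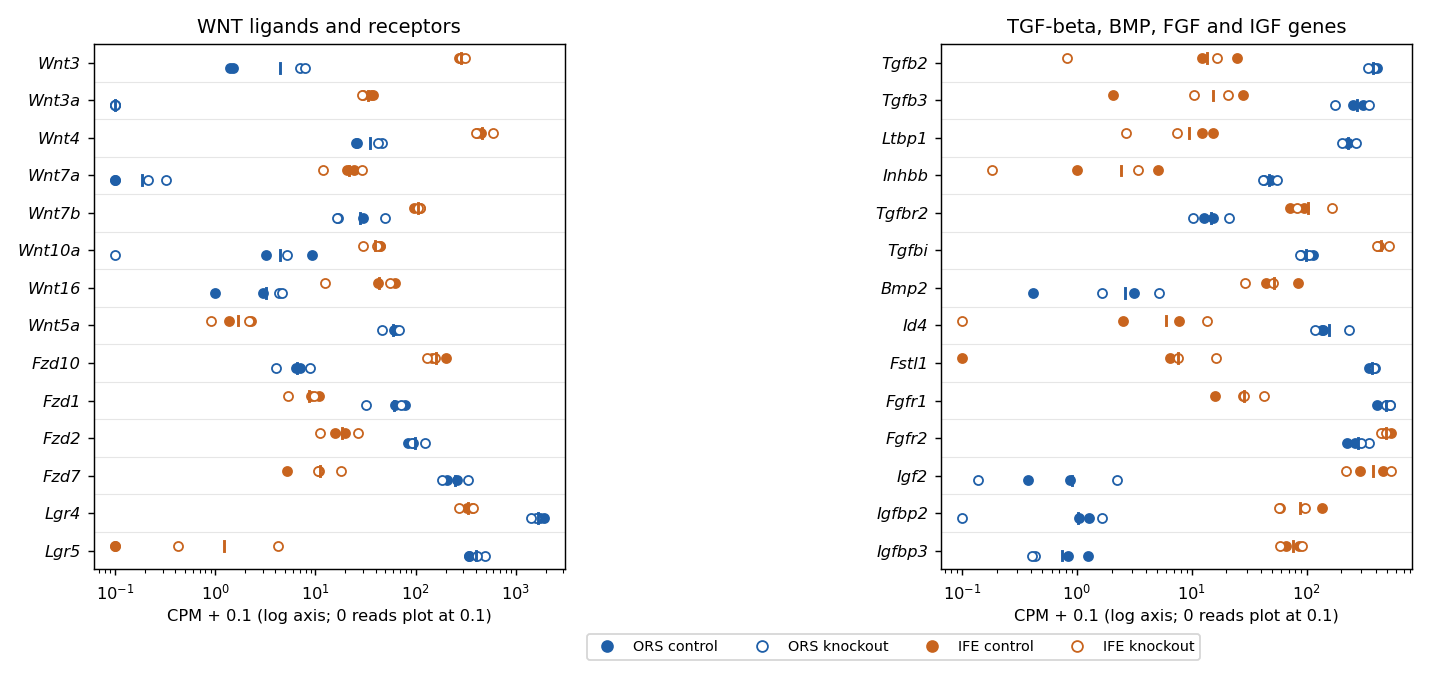
CPM + 0.1 per library (log axis) for WNT ligands and receptors (left) and for TGF-beta, BMP, FGF and IGF genes (right), with filled circles for control, open circles for knockout libraries and bars for means. Wnt5a is the only WNT ligand plotted that is higher in ORS, and Fzd10 the only receptor plotted on the left that is lower.

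Of 22 TGF-beta and activin genes tested, 9 were called higher in ORS, 2 lower and 11 not, with a median of 0.81. Tgfb2 was at 386, 411, 385 and 343.6 CPM in ORS and at 12.1, 24.9, 0.722 and 16.5 CPM in IFE (log2 difference 5.40, SE 0.65). Ltbp1, which holds latent TGF-beta in the matrix, was at 228, 225, 203 and 272 CPM in ORS and 12.2, 15.3, 7.38 and 2.59 CPM in IFE (log2 difference 4.79, SE 0.34), and Tgfb3 and Inhbb, an activin subunit, had differences of 4.56 and 4.54. The members lower in ORS were Tgfbr2, the ligand-binding receptor, at 14.7 against 104 CPM, and Tgfbi, a matrix protein induced by TGF-beta, at 98.5 against 447 CPM. The activin receptor gene Acvr2a was higher in ORS (log2 difference 1.01), while the receptors Tgfbr1 and Tgfbr3 and the ligand genes Tgfb1 and Inhba were not called. In the BMP list, 5 of 23 were higher and 4 lower. The higher count was 2 to 6 with 1 library left out and moved by over 1.5 times without any library but IFE knockout E359. It was 12 on the deposited library totals and 3 with the centring on exon length. Bmp2 was at 84.0, 44.3, 29.1 and 51.0 CPM in IFE and at 0.316, 3.06, 1.56 and 5.07 CPM in ORS, and Fstl1, a secreted BMP modulator, was at 375 CPM on average in ORS against 7.55 CPM in IFE. The ID genes, targets of BMP, did not move as a group: Id4 was higher in ORS (156 against 5.87 CPM), Id2 lower (26.8 against 99.4 CPM), and Id1 and Id3 were not called (log2 differences 0.31 and -0.06).

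Growth factor genes differed too. Fgfr1 was at 412, 531, 492 and 537 CPM in ORS and at 27.7, 15.9, 42.1 and 28.4 CPM in IFE (log2 difference 4.16, SE 0.24), and Fgfr2, the receptor for FGF7 and FGF10, was lower in ORS (283 against 488 CPM, log2 difference -0.80). Of 20 FGF and ERK feedback genes, 8 were higher and 2 lower, with a median of 0.97. The higher ones included the ERK-induced genes Dusp6, Etv4, Etv5, Spry2, Spred1 and Spry4, the last at 3.21 against 0 CPM. Without ORS control E341 or E344, or either ORS knockout, 4 or 5 of the 8 were called. Spry1, Spred2, Spred3, Dusp4 and Dusp5, of the same families, were not called (log2 differences -0.06, -0.44, 2.18, 0.14 and -0.03). All but Spred2 of these were at low levels. In the IGF list the genes lower in ORS were Igf2, H19, Igfbp2 and Igfbp3, the last at 75.5 against 0.632 CPM, and Igfbp5 and Irs2 were higher. The median of 13 IGF genes was 0.15 and changed sign in 3 alternative settings. Of 17 Notch genes, 5 were lower (Notch1, Notch2, Notch3, Dll1 and Hes1) and none higher, and on the deposited library totals 1 was lower and 6 were higher. Without ORS control E341, 3 were lower.

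Guidance genes were called often in both directions, 15 of 44 higher and 8 lower. Sema3e, a semaphorin, was at 250, 269, 240 and 239 CPM in ORS and at 5.68, 3.33, 4.90 and 0 CPM in IFE (log2 difference 6.46, SE 0.62). Bdnf, a neurotrophin, was at 48.8, 47.6, 26.3 and 38.5 CPM in ORS with no read in IFE, at least 160-fold higher, and Ephb1, an ephrin receptor, likewise at least 161-fold. Sema3d, Sema4d and Sema3c were lower in ORS (log2 differences -3.39, -2.50 and -1.90). The count of guidance genes called lower was 5 to 7 with 1 library left out, and moved by over 1.5 times without ORS control E341 or ORS knockout E358. In the matrix list 10 of 37 were higher and 5 lower. On the deposited library totals 22 were higher and none lower, and with the centring on exon length 9 were lower. The lower calls numbered 3 to 6 with 1 library left out, and the count moved by over 1.5 times without IFE control E341 or ORS knockout E358. Col4a3 and Col4a4, chains of 1 collagen IV network, were at 58.4 and 19.8 CPM in ORS and 1.20 and 0.0203 CPM in IFE, and Npnt, the ligand of an integrin in the bulge, at 228 against 62.6 CPM.

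Defence genes stood on the IFE side. Of 23 keratinocyte cytokine and defence genes, 14 were lower in ORS and none higher, with a median of -2.18 (-2.91 with bounds). Ccl27a, a chemokine that draws T cells to skin, was at 569, 919, 485 and 570 CPM in IFE and at 21.4, 19.1, 37.0 and 22.1 CPM in ORS (log2 difference -4.65, SE 0.23). Cxcl10, an interferon-induced chemokine, had no read in ORS and 22.9 ± 11.9 CPM in IFE, and Il34 was lower as well (5.08 against 54.5 CPM). Leaving out 1 library at a time gave 8 to 13 lower calls. The count moved by over 1.5 times without any of the IFE controls, the ORS controls, IFE knockout E358 or ORS knockout E359.

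Of 37 cell division genes tested, 13 were called higher in ORS, none lower and 24 not, with a median of 0.60. The uncalled ones included Cdk1 and Ccnb2, which drive entry into mitosis (log2 differences 0.05 and 0.01). Mki67 was at 845, 846, 999 and 1076 CPM in ORS and at 394, 597, 326 and 443 CPM in IFE (log2 difference 1.12, SE 0.16), and Top2a, which untangles replicated DNA, was at 1104, 1003, 1144 and 1110.4 CPM in ORS and 384, 619, 452 and 549 CPM in IFE. No ORS value overlapped the IFE values in either gene. With 1 library left out there were 7 to 12 higher calls, and the count moved by over 1.5 times without ORS control E341 or E344. D cyclins and CDK inhibitors did not move as a group: of 12 tested, 2 were higher in ORS, 2 lower and 8 not called. Their median of -0.063 changed sign in 6 alternative settings. Ccnd1, which promotes entry into the cell cycle, was higher (log2 difference 1.32), and Cdkn1a, which blocks it, was lower, at 35.3, 28.7, 47.6 and 39.4 CPM in ORS and 202, 182, 218 and 239.6 CPM in IFE (log2 difference -2.48). Myc and Mycn exchanged places: Myc was at 83.0, 89.3, 34.6 and 77.5 CPM in IFE and 8.67, 5.11, 0.185 and 5.63 CPM in ORS, and Mycn at 9.92, 16.9, 9.95 and 31.4 CPM in IFE and 105, 154, 121 and 104 CPM in ORS (log2 differences -4.13 and 2.94).

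Among metabolic and housekeeping lists, 7 of 25 cholesterol and fatty acid genes were higher in ORS and none lower, while 7 of 28 glycolysis and hypoxia genes were lower and none higher. Slc2a1, the main glucose transporter of keratinocytes, was at 53.5 against 207 CPM, and Aldoa, a glycolytic enzyme, at 539.6 against 1297 CPM. The cholesterol and fatty acid count was 2 to 7 with 1 library left out, and moved by over 1.5 times without IFE control E360 or any of the ORS libraries. On the deposited library totals it was 18. The glycolysis and hypoxia count was 3 to 8 with 1 library left out, and moved by over 1.5 times without IFE control E341, ORS control E344 or ORS knockout E359. On the deposited library totals 2 of that list were lower and 10 higher, and its median of -0.45 turned positive. Of 82 cytosolic ribosomal protein genes, 26 were lower and none higher, with a median of -0.54, but on the deposited library totals none was lower and 24 were higher. Between 12 and 38 were lower with 1 library left out, and the count moved by over 1.5 times without any of the controls or IFE knockout E358. Differences also followed gene length: the median log2 difference was -0.13 in the first of 4 equal groups of genes ordered by exon length, the shortest, and 0.25 in the last. With the centring on exon length, 8 cell division genes were called higher and 26 ribosomal protein genes lower.

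**Figure D4:**
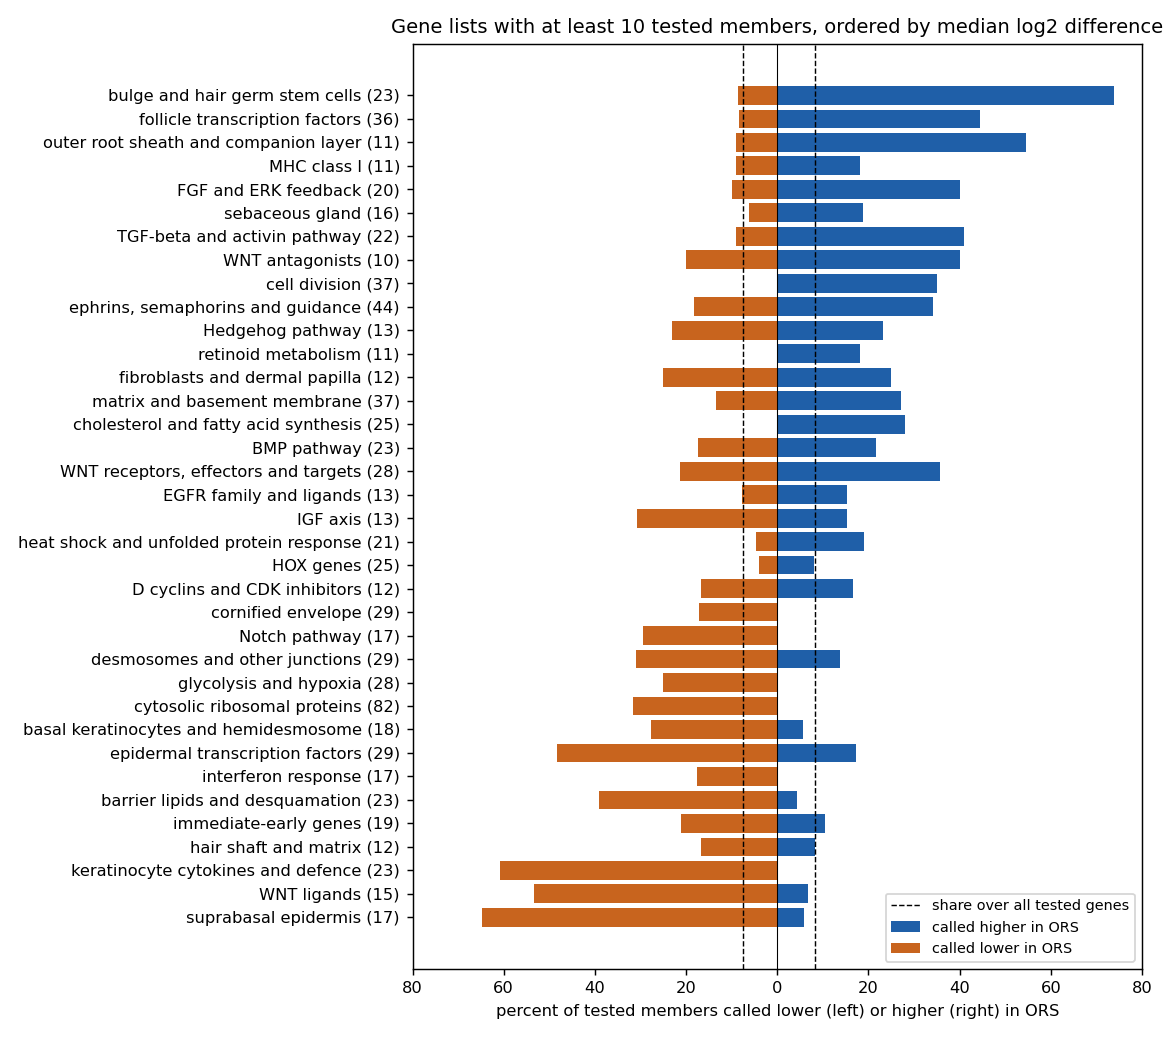
Percent of the tested members called higher (blue, right) or lower (orange, left) in ORS for each gene list with at least 10 tested members (number in brackets), ordered by median log2 difference. Dashed lines mark the shares over all tested genes, 8.31% higher and 7.46% lower.

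The compartment difference was then taken in each genotype, which share no library. The knockout libraries were of 1 sex by Xist, and the control libraries were not. In controls 919 genes were called (6.36%), 456 higher (3.16%) and 463 lower (3.2%), and in knockouts 986 (6.82%), 511 higher (3.54%) and 475 lower (3.29%). Both sets share 570 genes, 62.0% of the calls in controls and 57.8% of those in knockouts. Of the 919 genes called in controls, 890 had the same sign in knockouts (96.8%), against 69.6% of all tested genes. Across all 14449 genes, which are not independent replicates and share 1 estimate of spread, the differences of the genotypes correlated with a Pearson r of 0.65 and a Spearman rho of 0.53. The test of whether the difference itself depended on genotype called 0 genes (0.0%) by limma, with 690 at an unadjusted p under 0.05 and a smallest adjusted p of 0.999, and limma-voom also called 0. With 2 libraries a group, this does not show that the genotypes are alike.

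**Figure D5:**
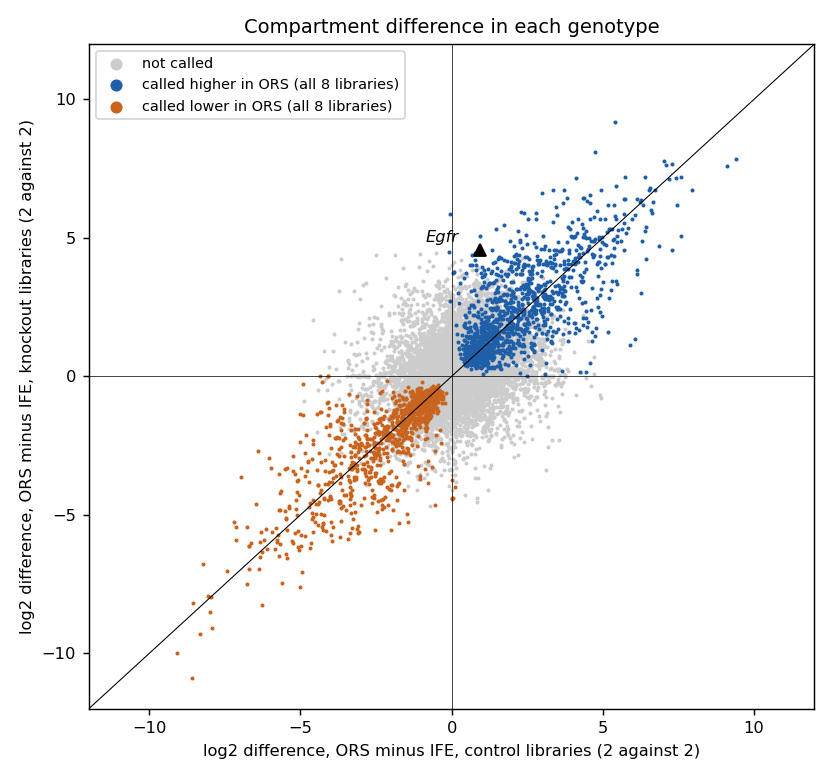
Log2 difference of ORS minus IFE in knockout libraries (vertical axis) against that in control libraries (horizontal axis), 1 point per tested gene, with genes called over all 8 libraries in colour and the line of equal values. Of the genes called in controls, 890 of 919 lie on the same side of 0 in knockouts, and Egfr (triangle) lies off the line.

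Egfr, the deleted gene, was at 273, 248.6, 3.70 and 55.3 CPM in ORS and at 117, 157, 0 and 0.324 CPM in IFE. All 4 libraries labelled knockout were below all 4 controls. Of these, ORS knockout E359 kept an Egfr level of 55.3 CPM, well above the other 3 and below the lowest control, at 117 CPM. The log2 difference by limma was 2.76 over both genotypes (SE 0.68, adjusted p = 0.0201). In controls it was 0.94 and not called (adjusted p = 0.649), and in knockouts it was 4.58 and called (adjusted p = 0.0179). The difference between these was not called (adjusted p = 0.999). The 4 groups share 1 estimate of spread, so the SE was 0.95 in either genotype. For Egfr that estimate takes in the uneven knockout libraries. Both ORS control values lay above both IFE control values, so the missing call in controls does not show equal levels. Egfr was not called by limma-voom, nor when any of the IFE controls, IFE knockout E358 or either ORS control was left out. Of its ligands, Epgn was lower in ORS, at 0, 1.32, 0 and 0 CPM against 10.7, 1.26, 13.7 and 11.4 CPM in IFE.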

How the data were processed

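The authors deposited, for each gene and library, the log2 of its reads per 1e6, made from paired reads of 150 bp. Per the submitters' processing notes, Trim Galore and DESeq2 were used and the build was mm10, with no roles stated. An aligner, a counter and the use of strand were not given in the sources used here. Whole reads were recovered from the deposited log2 values (within 0.2 reads). They were rescaled to reads in genes with TMM factors, and log2(CPM + 0.5) was tested with limma 3.58.1 (R 4.3.3, trended, robust) as 4 groups of 2 libraries. Genes were tested when 2 or more libraries reached 10 reads (scaled to the median depth) and the 8 libraries held 15 or more. Fits were tested on simulated data. Genes near a copy or an antisense partner may share reads. Of 25965 gene names, 22722 (87.5%) were found in GENCODE M21 for exon lengths. All 13 mitochondrially encoded genes had 0 reads.

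Named genes were the 15 largest called differences each way without overlap and with at least 20 CPM in the higher compartment, up to 4 called members each way of each list, 2 uncalled members by level, called transcription factors, cell type markers, Egfr and genes with 0 reads in 1 compartment. The members and lists were chosen with earlier results of these data known. Alternatives covered scaling, filters, pseudocounts, limma-voom, additive terms, thinning, a replicate block and leaving out each library. The interferon, MHC class I, heat shock, retinoid, immediate-early, Hedgehog, sebaceous gland, hair shaft, Merkel and Schwann cell, red blood cell and sex-linked lists were also counted. In that order, 17, 11, 21, 11, 19, 13, 16, 12, 5, 1 and 5 of their members were tested. Over all tested genes, 8.31% were called higher in ORS and 7.46% lower. The calls of these lists higher and lower in ORS were 0 and 3, 2 and 1, 4 and 1, 2 and 0, 2 and 4, 3 and 3, 3 and 1, 1 and 2, 1 and 0, 0 and 0 and 0 and 0. Leaving out 1 library moved several of these counts by over 1.5 times: the higher count to 0 or 1 for the sebaceous gland (any library), 0 to 3 for heat shock (any but the IFE knockouts), 0 to 2 for retinoid genes (any but E358 knockouts) and 1 to 2 for MHC class I.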

Additional observations from a re-analysis of the deposited data

How the results depend on the processing

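Against 2279 genes called over all 8 libraries (1201 higher and 1078 lower in ORS), dividing by the deposited library totals gave 7445 (6966 and 479), with 4224 in controls and 4747 in knockouts. Of the 2279 genes, 1976 kept their sign on those totals, and all of those tested kept it under the other alternatives run. The 6 libraries whose number occurs in both compartments gave 1361 calls (672 and 689). Leaving out 1 library at a time gave 1217 to 2690 calls (580 to 1593 higher, 637 to 1097 lower), 229 to 1140 in controls, 395 to 1346 in knockouts and 0 to 2 for the difference between genotypes. The calls moved by over 1.5 times without ORS control E341 (1259), ORS control E344 (1217) or ORS knockout E359 (1469). In controls each of the control libraries moved the count (to between 229 and 423), and in knockouts IFE E358, ORS E358 and ORS E359 did (582, 496 and 395). The causes were not tested.

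Numbers E341, E358 and E359 occur in both compartments, but no label says that they mark a shared animal. The deviations of same-numbered libraries from their group means correlated at 0.0488, 0.0555 and 0.0555. With 2 libraries a group these deviations mirror each other, so E358 and E359 give the same value by construction. Such correlations cannot decide whether an animal is shared. A replicate block as a fixed term gave 1509 calls (752 higher), and as a random term 2567, with a correlation of 0.113.

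Of 151 named genes called, 119 kept the call and direction in every alternative run, and 24 lost the call without at least 1 library (Barx2, Col5a1, Cux1, Dll1, Dusp6, Egfr, Elovl4, Epgn, Etv4, Etv5, Gjb2, Grhl3, Hes1, Hoxa7, Il11ra1, Klf4, Krt28, Krt71, Lgr6, Ovol1, Spry4, Tcf7, Wif1 and Wnt9b). On the deposited library totals the log2 difference turned positive for Col17a1 (0.083), Fgfr2 (0.19), Hes1 (0.068), Hoxa7 (0.12), Itga6 (0.14), Notch1 (0.15) and Wls (0.051), and for Krt15 (0.87, where it was called). For Krt15 it was 0.0051 with reads in genes and no TMM factor. Depth limits low genes: 3 reads equal 0.252 CPM in IFE and 0.111 CPM in ORS.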
